A study of Mus musculus with 8 samples.

Results

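The genes described here are 10 targets of Wnt signalling and markers of hepatocytes around the central vein: Axin2, Lgr5, Tbx3, Rnf43, Znrf3, Nkd1, Lect2, Rhbg, Cyp1a2 and Slc1a2. The rule that picks them lists known Wnt target and pericentral genes by name and uses no measured value. The members were, however, chosen with earlier results of these data known. Each was found by its Ensembl identifier among the 55401 genes of every table. RNA was sequenced from the livers of C57BL/6J mice on day 2 after partial hepatectomy, an operation that takes out most liver lobes, after which the remnant regrows. The 4 shTbl1xr1 libraries came from mice given an adeno-associated virus that carries a hairpin RNA against Tbl1xr1 to hepatocytes, and the 4 shNC libraries from mice given a control hairpin the same way. Virus preceded surgery by 4 weeks in both groups, and every mouse had surgery, so no library shows the resting liver. No label used here gives the promoter of the hairpin, the age of the mice, or whether each replicate is its own animal, and all p-values therefore measure only the spread between these libraries.

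In the liver lobule, endothelial cells of the central vein secrete Wnt proteins and R-spondins, and hepatocytes close to the vein respond with beta-catenin, which enters the nucleus and activates genes bound by TCF factors. Part of the response is feedback: receptors and inhibitors of the pathway are themselves targets. The other part is metabolic, and gives pericentral hepatocytes their glutamine synthesis, ammonium uptake and drug oxidation. Tbl1xr1, a WD40 protein of the NCoR and SMRT corepressor complexes, is also known to be recruited with beta-catenin to Wnt target genes.

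No member passed the threshold of the comparison over all genes, an adjusted p of 0.05 by edgeR's quasi-likelihood test with Benjamini-Hochberg adjustment over 13908 genes, where 7 genes, or 0.0503%, did (0 without shNC 1, 2 or 4). The 6 pathway regulators (Lgr5, Rnf43, Znrf3, Axin2, Nkd1 and Tbx3) all had negative log2 fold changes of shTbl1xr1 over shNC, between -0.67 and -0.07, although Znrf3 turned positive in 6 of 19 alternatives (up to 0.13) and Tbx3 in 1 (0.03). The 4 metabolic or secreted members (Rhbg, Slc1a2, Cyp1a2 and Lect2) all had positive ones, between 0.43 and 1.41, although Lect2 turned negative in 4 of 19 alternatives, from -0.025 with scaling by library size alone to -0.47 in shTbl1xr1 3 and 4 against shNC. The median was -0.41 over the 6 and 1.0 over the 4, beside 0.01 over all genes tested. This split by function was not part of the planned tests, and the members were chosen with earlier results of these data known. Tbx3, a T-box repressor and beta-catenin target, was counted with the regulators although it is not a receptor or inhibitor of the pathway. The split coincides with the sign of the main log2 fold change and carries no test. The 4 also had the highest levels of the members in both groups, as given below. At an unadjusted p under 0.05 there were 3 of 10 members, Axin2 and Lgr5 lower (3.71% of all genes) and Rhbg higher (7.9% of all genes), beside 11.6% of all genes in either direction. DESeq2 called 1 member (Rhbg) and 2.21% of all genes, and limma-voom with sample weights called 0 members and 0.237% of all genes. All 10 members passed the filter on low counts, and the smallest count of any member in any library was 29. In bulk tissue, fewer cells of a type and less RNA per cell cannot be told apart.

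The targeted gene was lower in each shTbl1xr1 library than in any shNC library. Tbl1xr1 had 2.38, 2.07, 9.24 and 15.9 CPM in shTbl1xr1 1 to 4, against 27.2, 35.9, 33.7 and 34.6 CPM in shNC 1 to 4, where CPM are counts scaled to library size by TMM. Relative to shNC this was -2.07 on the log2 scale (SE 0.54), with an adjusted p of 0.290 by edgeR. Libraries shTbl1xr1 1 and 2 held 10895508 and 10728583 counts, and the other 6 held 25811763 to 36720879. These shallow libraries also stood apart on the first principal component (86.0 and 86.4, against -39.7 to -9.29 in the other 6) and in the share of mitochondrially encoded counts (11.3% and 14.8%, against 4.52% to 7.34%). Both are shTbl1xr1 libraries and have the least Tbl1xr1, so depth, composition and degree of knockdown cannot be told apart. Results are therefore also given from shTbl1xr1 3 and 4 against shNC, and from shTbl1xr1 1 and 2 against shNC. The fit of shTbl1xr1 3 and 4 called 0.0478% of all genes and 0 members. That of shTbl1xr1 1 and 2 called 42.6% of all genes and 5 members, so a call there sets a gene little apart.

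**Figure D1:**
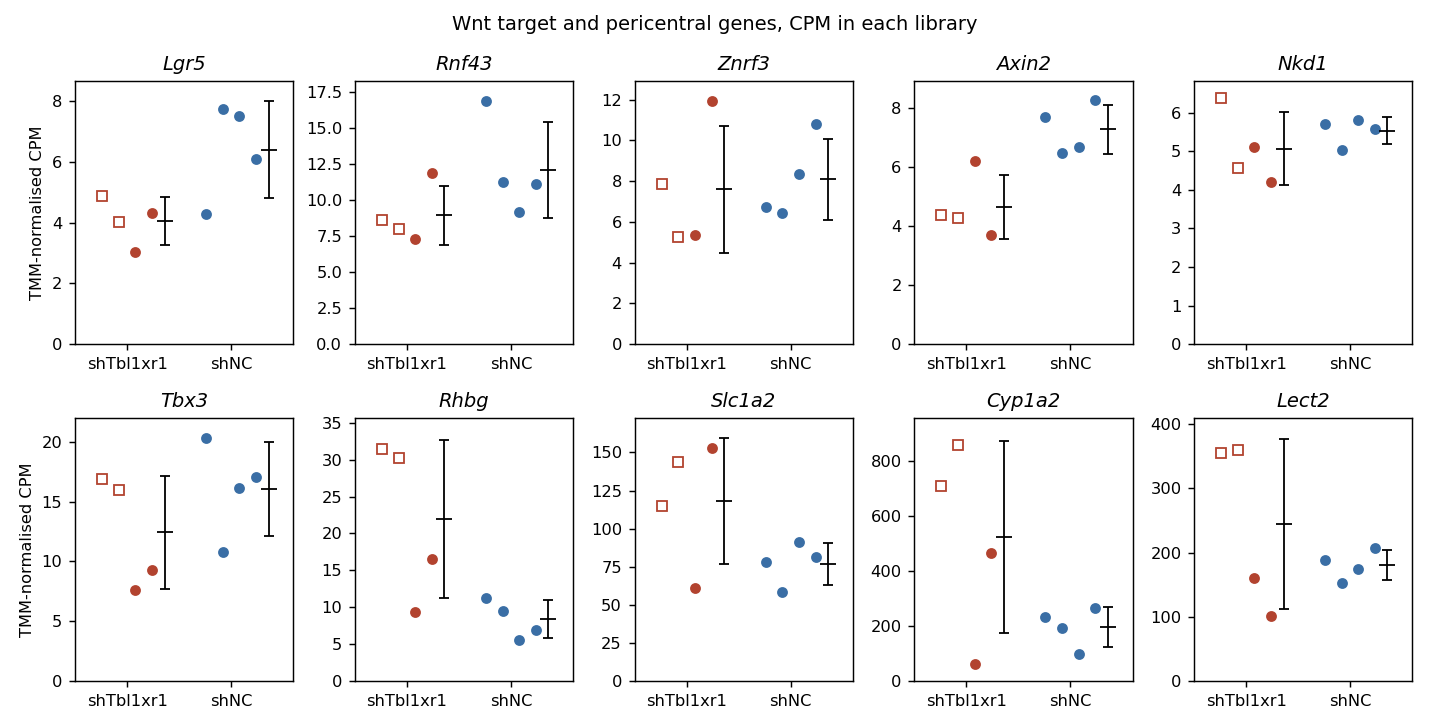
TMM-normalised CPM of the 10 genes, 1 panel per gene, with 1 point per library and the mean and SD (n = 4) in black beside each group. Open squares are shTbl1xr1 1 and 2, the shallow libraries, filled red circles are shTbl1xr1 3 and 4, and blue circles are shNC 1 to 4. Axin2 is the 1 gene whose groups do not overlap on this scale, while Cyp1a2 in shTbl1xr1 spans 62.1 to 856 CPM.

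Levels of different genes were compared per length, on the authors' deposited TPM. The order in shTbl1xr1 was led by Lect2 at 321 ± 66.8 TPM, Cyp1a2 at 241 ± 134 TPM and Slc1a2 at 36.9 ± 19.1 TPM, followed by Rhbg at 10.5 ± 2.40 TPM (SD, n = 4 each). In shNC the same 4 genes led in the same order, with 387 ± 54.2, 148 ± 53.1, 37.9 ± 6.69 and 6.21 ± 1.54 TPM (SD, n = 4 each). Neighbours in this order were not all resolved: in shTbl1xr1 the range of Cyp1a2 (49.4 to 364 TPM) overlapped those of Lect2 and Slc1a2, and in shNC the range of Rhbg (4.47 to 7.75 TPM) overlapped that of Tbx3 (3.02 to 5.18 TPM). The 6 pathway regulators had mean levels between 0.893 and 2.84 TPM in shTbl1xr1, against 1.88 to 4.47 TPM in shNC. Their order could not be resolved in shTbl1xr1, where each gene's range overlapped that of the next from Rnf43 down to Lgr5. In shNC 1 gap was clear among them, with every Axin2 level (2.81 to 3.32 TPM) above every Lgr5 level (1.14 to 2.58 TPM). Several regulators rest on few counts in the shallow libraries shTbl1xr1 1 and 2. Axin2 had 35 and 31 counts there, Lgr5 39 and 29, Nkd1 51 and 33, Znrf3 63 and 38 and Rnf43 69 and 58.

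The windows around the transcription start are shown for Axin2, the member whose groups did not overlap, and for Lect2 and Cyp1a2, members whose window holds the TCF core. They are RefSeq promoter windows on GRCm38.p6, with 250 bases before and 50 after the start, written 5′ to 3′ on the gene's own strand. Capitals mark the TCF core, searched as CTTTGAA or CTTTGAT on both strands.
Axin2, chr11:108920099-108920398, plus strand: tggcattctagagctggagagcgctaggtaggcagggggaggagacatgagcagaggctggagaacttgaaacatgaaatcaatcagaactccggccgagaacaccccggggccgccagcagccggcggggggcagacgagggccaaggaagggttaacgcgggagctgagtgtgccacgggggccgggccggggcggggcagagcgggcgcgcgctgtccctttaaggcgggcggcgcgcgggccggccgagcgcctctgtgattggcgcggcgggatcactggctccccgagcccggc
Lect2, chr13:56548489-56548788, minus strand: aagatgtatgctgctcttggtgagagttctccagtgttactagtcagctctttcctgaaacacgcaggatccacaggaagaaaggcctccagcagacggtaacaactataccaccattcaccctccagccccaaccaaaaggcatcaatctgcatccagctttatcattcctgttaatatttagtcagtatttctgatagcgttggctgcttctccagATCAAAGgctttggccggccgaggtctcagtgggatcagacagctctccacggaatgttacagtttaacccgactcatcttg
Cyp1a2, chr9:57683606-57683905, minus strand: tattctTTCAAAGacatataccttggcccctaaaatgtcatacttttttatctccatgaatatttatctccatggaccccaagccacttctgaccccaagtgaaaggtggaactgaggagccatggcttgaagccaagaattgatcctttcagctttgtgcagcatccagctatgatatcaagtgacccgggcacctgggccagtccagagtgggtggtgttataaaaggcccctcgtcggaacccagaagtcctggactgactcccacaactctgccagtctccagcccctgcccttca
The table held 7 windows for 6 members, Axin2, Rnf43 (2 windows), Nkd1, Lect2, Cyp1a2 and Slc1a2. The core was in 3 of the 7, those of Lect2 (at -32), Cyp1a2 (at -244) and Slc1a2 (at -207), and in 8.65% of all 32851 windows. The windows of Slc1a2 and Nkd1 and the 2 of Rnf43 lie inside the annotated gene and not at its outer start. The core of the aryl hydrocarbon receptor, GCGTG on either strand, was in 3 of the 7 windows (1 of Rnf43, Nkd1 and Lect2) and in 32.4% of all windows. A match of letters is a description and not a site of binding, and a window without these letters tells nothing about TCF there. Windows for Lgr5, Tbx3, Znrf3 and Rhbg were not analysed here.

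Lgr5, Rnf43 and Znrf3 act together at the cell surface. Rnf43 and Znrf3 are ubiquitin ligases that remove Frizzled receptors from the membrane, and Lgr5 is a receptor for R-spondins, which take both ligases out of action. Lgr5 (ENSMUSG00000020140.15, chromosome 10, 115450311 to 115587780, minus strand, mm10) had 4.88, 4.0, 3.03 and 4.31 CPM in shTbl1xr1 1 to 4, against 4.27, 7.74, 7.50 and 6.10 CPM in shNC 1 to 4. The groups overlapped through shNC 1, whose level was below those of shTbl1xr1 1 and 4. The means were 4.06 ± 0.78 CPM in shTbl1xr1 and 6.40 ± 1.6 CPM in shNC (SD, n = 4 each), or a log2 fold change of -0.67 with a 95% interval of -1.23 to -0.11 (unadjusted p = 0.0240, adjusted p = 0.405 by edgeR's quasi-likelihood test). Permuting the group names over the libraries, an exact test with 70 arrangements, gave a two-sided p = 0.0857. The direction held in both pairs, at -0.80 in shTbl1xr1 3 and 4 against shNC and -0.53 in shTbl1xr1 1 and 2 against shNC.

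Rnf43 (ENSMUSG00000034177.15, chromosome 11, 87662722 to 87735539, plus strand, mm10) had 8.64, 8.01, 7.28 and 11.9 CPM in shTbl1xr1 1 to 4, against 16.9, 11.3, 9.16 and 11.1 CPM in shNC 1 to 4. Libraries shTbl1xr1 1, 2 and 3 lay below the shNC range and shTbl1xr1 4 lay inside it. This gave a log2 fold change of -0.43 with an interval of -0.96 to 0.11 (adjusted p = 0.473), and leaving out shNC 1, the highest library, moved it to -0.22. A transcript inside an intron of Rnf43 on the same strand, 1110028F11Rik, was counted separately with 79 to 149 counts. Znrf3, the paralog of Rnf43 (ENSMUSG00000041961.14, chromosome 11, 5276324 to 5444847, minus strand), had 7.89, 5.25, 5.35 and 11.9 CPM in shTbl1xr1 1 to 4, against 6.75, 6.43, 8.36 and 10.8 CPM in shNC 1 to 4. The groups overlapped, and shTbl1xr1 spread wider, with 1 library above every shNC library and 2 below. At -0.07, its log2 fold change had an interval of -0.75 to 0.60, within which no difference was detectable at this depth, and its sign turned in several fits.

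Axin2 and Nkd1 are inhibitors inside the cell. Axin2 is a scaffold of the complex that marks beta-catenin for destruction, and its mRNA is the most widely used readout of Wnt signalling; Nkd1 binds Dishevelled, the protein that relays the signal from the receptor. Axin2 (ENSMUSG00000000142.15, chromosome 11, 108920349 to 108950783, plus strand, mm10) had 4.38, 4.28, 6.18 and 3.69 CPM in shTbl1xr1 1 to 4, against 7.68, 6.47, 6.67 and 8.24 CPM in shNC 1 to 4. Every shTbl1xr1 library was below every shNC library, by a narrow margin between shTbl1xr1 3 and shNC 2. Non-overlap in that direction was found for 3.37% of all genes, and for 7.25% in either direction. The means were 4.63 ± 1.08 CPM in shTbl1xr1 and 7.27 ± 0.84 CPM in shNC (SD, n = 4 each), so that shTbl1xr1 had 63.8% of the shNC level.

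The log2 fold change of Axin2 was -0.64 with an interval of -1.12 to -0.17 (unadjusted p = 0.0134, adjusted p = 0.354 by edgeR's quasi-likelihood test). The two-sided exact permutation p was 0.0286, the smallest that 4 against 4 libraries can give. The value was -0.56 in shTbl1xr1 3 and 4 against shNC and -0.75 in shTbl1xr1 1 and 2 against shNC, where it passed (adjusted p = 0.0160) among the 21.1% of all genes called lower. Its adjusted p ran from 0.0160 to 0.705 over the alternatives. On the deposited TPM the groups overlapped, since shTbl1xr1 3 had 2.93 TPM and shNC 1 and 2 had 2.81 and 2.88 TPM.

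Nkd1 (ENSMUSG00000031661.12, chromosome 8, 88521354 to 88594884, plus strand, mm10) had 6.38, 4.56, 5.12 and 4.21 CPM in shTbl1xr1 1 to 4, against 5.71, 5.03, 5.81 and 5.59 CPM in shNC 1 to 4. The shNC libraries lay close together, and the shTbl1xr1 libraries lay on both sides of them. Its log2 fold change was -0.13 with an interval of -0.57 to 0.30 (adjusted p = 0.770). Tbx3, a T-box repressor that is a direct beta-catenin target in hepatocytes (ENSMUSG00000018604.18, chromosome 5, 119670669 to 119684724, plus strand), had 16.9, 16.0, 7.57 and 9.27 CPM in shTbl1xr1 1 to 4, against 20.3, 10.8, 16.1 and 17.0 CPM in shNC 1 to 4. Here the shallow libraries sat within the shNC range and the deeper pair below it. Tbx3 had a log2 fold change of -0.39 with an interval of -1.06 to 0.28 (adjusted p = 0.572). It was -0.93 in shTbl1xr1 3 and 4 against shNC and 0.03 in shTbl1xr1 1 and 2 against shNC. On the deposited TPM, which carry no TMM scaling, the groups did not overlap, with 1.98 to 2.86 TPM in shTbl1xr1, against 3.02 to 5.18 TPM in shNC. The share of all genes without overlap on TPM was not computed, so this sets Tbx3 apart from no other gene. An antisense gene that overlaps Tbx3, Tbx3os1, had at most 55 counts, and reads of such partners cannot be told apart without a stated strand setting.

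Rhbg and Slc1a2 carry substrates of glutamine synthetase into pericentral hepatocytes: Rhbg is an ammonium transporter of the Rhesus family, and Slc1a2 (GLT-1) a transporter of glutamate. Rhbg (ENSMUSG00000104445.1, chromosome 3, 88242874 to 88254709, minus strand, mm10) had 31.4, 30.2, 9.40 and 16.5 CPM in shTbl1xr1 1 to 4, against 11.3, 9.54, 5.54 and 6.95 CPM in shNC 1 to 4. Libraries shTbl1xr1 1, 2 and 4 were above the shNC range and shTbl1xr1 3 was inside it. The means were 21.9 ± 10.7 CPM in shTbl1xr1 and 8.33 ± 2.58 CPM in shNC (SD, n = 4 each), or a log2 fold change of 1.38 with an interval of 0.51 to 2.25 (unadjusted p = 0.00567, adjusted p = 0.320). The two-sided exact permutation p was 0.0857. Rhbg passed with DESeq2 (1.40, adjusted p = 0.0336), where 1.86% of all genes were called higher. It had 0.64 in shTbl1xr1 3 and 4 against shNC and 1.88 in shTbl1xr1 1 and 2 against shNC (called, with 21.5% of all genes called higher), and its adjusted p ran from 0.000798 to 0.705 over the alternatives. The predicted gene Gm38392 overlaps Rhbg on the same strand and had at most 25 counts in any library, so the split of shared reads between them is uncertain.

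Slc1a2 (ENSMUSG00000005089.15, chromosome 2, 102658659 to 102790784, plus strand, mm10) had 115, 144, 61.2 and 153 CPM in shTbl1xr1 1 to 4, against 77.8, 58.2, 90.9 and 81.3 CPM in shNC 1 to 4. As for Rhbg, shTbl1xr1 1, 2 and 4 were above the shNC range and shTbl1xr1 3 was inside it. Slc1a2 had a log2 fold change of 0.62 with an interval of -0.01 to 1.24 (adjusted p = 0.426), and it was 0.28 when libraries were scaled by size alone. On the deposited TPM the order differed, with 28.4, 24.6, 29.2 and 65.4 TPM in shTbl1xr1 1 to 4, against 33.9, 31.0, 45.8 and 40.8 TPM in shNC 1 to 4, so that 3 shTbl1xr1 libraries were below the shNC range. Glul, the glutamine synthetase that uses both substrates and marks the hepatocytes next to the central vein, had 873 ± 385 CPM in shTbl1xr1 and 751 ± 102 CPM in shNC (SD, n = 4 each). Its log2 fold change of 0.22 (SE 0.33, adjusted p = 0.780) turned to -0.34 in shTbl1xr1 3 and 4 against shNC and to -0.20 when libraries were scaled by size alone.

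Cyp1a2, a monooxygenase that oxidises caffeine and aromatic amines and depends on both beta-catenin and the aryl hydrocarbon receptor (ENSMUSG00000032310.4, chromosome 9, 57676937 to 57683703, minus strand, mm10), was the most variable member. It had 709, 856, 62.1 and 463 CPM in shTbl1xr1 1 to 4, against 233, 192, 96.0 and 265 CPM in shNC 1 to 4. Libraries shTbl1xr1 1, 2 and 4 were above every shNC library, and shTbl1xr1 3 was below every one. The SD of its log2 level was 1.74 in shTbl1xr1 and 0.65 in shNC. Its log2 fold change was 1.41 with an interval of -0.03 to 2.85 (adjusted p = 0.426), and the two-sided exact permutation p was 0.343. It was 0.41 in shTbl1xr1 3 and 4 against shNC, where that pair lay on opposite sides of the shNC range, and 1.99 in shTbl1xr1 1 and 2 against shNC, where it was called.

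Targets of the aryl hydrocarbon receptor other than Cyp1a2 had log2 fold changes between -0.58 and 0.11. Of 5 listed, 4 were tested (Cyp1a1, Cyp1b1, Tiparp and Nqo1), 0 passed by edgeR, DESeq2 or limma-voom, 0 had an unadjusted p under 0.05, and the median was 0.00. Cyp1b1, with the smallest p, had -0.58 (SE 0.55, adjusted p = 0.649). Leaving out 1 library moved this to between -1.30 (without shTbl1xr1 3) and -0.25 (without shNC 3), with -0.37 without shTbl1xr1 1 and -0.38 without shTbl1xr1 4. Ahr itself had 29.7 ± 14.8 CPM in shTbl1xr1 and 37.9 ± 3.80 CPM in shNC (SD, n = 4 each), which is -0.34 on the log2 scale (adjusted p = 0.641).

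Lect2, a protein that hepatocytes secrete into the blood under the control of beta-catenin (ENSMUSG00000021539.9, chromosome 13, 56542464 to 56548502, minus strand, mm10), had 355, 359, 161 and 101 CPM in shTbl1xr1 1 to 4, against 189, 153, 174 and 207 CPM in shNC 1 to 4. The shallow libraries were high, shTbl1xr1 3 was inside the shNC range and shTbl1xr1 4 was below it. Between the groups, a log2 fold change of 0.43 had an interval of -0.41 to 1.28 (adjusted p = 0.621). It was -0.47 in shTbl1xr1 3 and 4 against shNC and 0.98 in shTbl1xr1 1 and 2 against shNC, where it was called. On the deposited TPM it averaged 321 ± 66.8 TPM in shTbl1xr1 and 387 ± 54.2 TPM in shNC (SD, n = 4 each), so its direction depended on the scale as well as on the libraries. Lect2 has the shortest gene model of the members, at 837 bases, and removing the trend with length, an alternative chosen after seeing the data, moved its log2 fold change to -0.06. The same step left Rhbg at 1.32, Cyp1a2 at 1.35, Slc1a2 at 0.74 and Axin2 at -0.54, and moved Lgr5 to -0.45, Tbx3 to -0.11 and Znrf3 to 0.13.

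**Figure D2:**
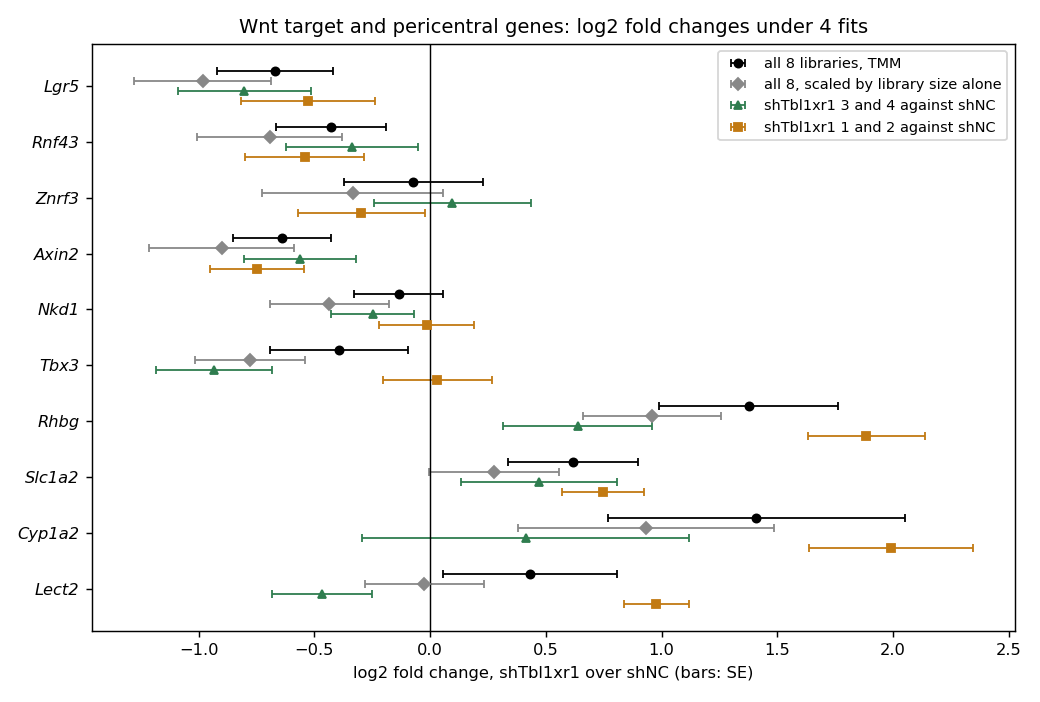
Log2 fold change of shTbl1xr1 over shNC with its SE for each gene, from 4 fits: all 8 libraries scaled by TMM (black circles), all 8 scaled by size alone (grey diamonds), shTbl1xr1 3 and 4 against shNC (green triangles) and shTbl1xr1 1 and 2 against shNC (orange squares). Axin2, Lgr5 and Rnf43 are left of 0 and Rhbg, Slc1a2 and Cyp1a2 right of 0 in all 4 fits, while Lect2 runs from -0.47 to 0.98.

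Regulators and metabolic members were also set side by side within each knockdown library. In shTbl1xr1 3, the regulators had a median log2 difference of -0.63 from the shNC mean and the metabolic members one of -0.24. There 1 of 10 members (Rhbg) was above the shNC mean, beside 6, 5 and 5 of 10 in shTbl1xr1 1, 2 and 4. In shTbl1xr1 4 the medians were -0.45 for the regulators and 1.02 for the metabolic members. In shTbl1xr1 1 they were -0.18 and 1.46, and in shTbl1xr1 2 they were -0.57 and 1.45. The shNC libraries had medians of -0.15 to 0.07 for the regulators and -0.29 to 0.21 for the metabolic members. The shNC medians are deviations from the mean of those same libraries, so they lie near 0 by construction and set no range for comparison. Over all genes tested the medians were -0.055, -0.072, -0.01 and 0.003 in shTbl1xr1 1 to 4. The medians of regulators and metabolic members describe 10 chosen genes, were not set against other gene sets and carry no test. Scaling libraries by size alone moved the median of all genes to -0.27, and against that shift the regulators had -0.98 to -0.34 and the metabolic members -0.02 to 0.96.

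**Figure D3:**
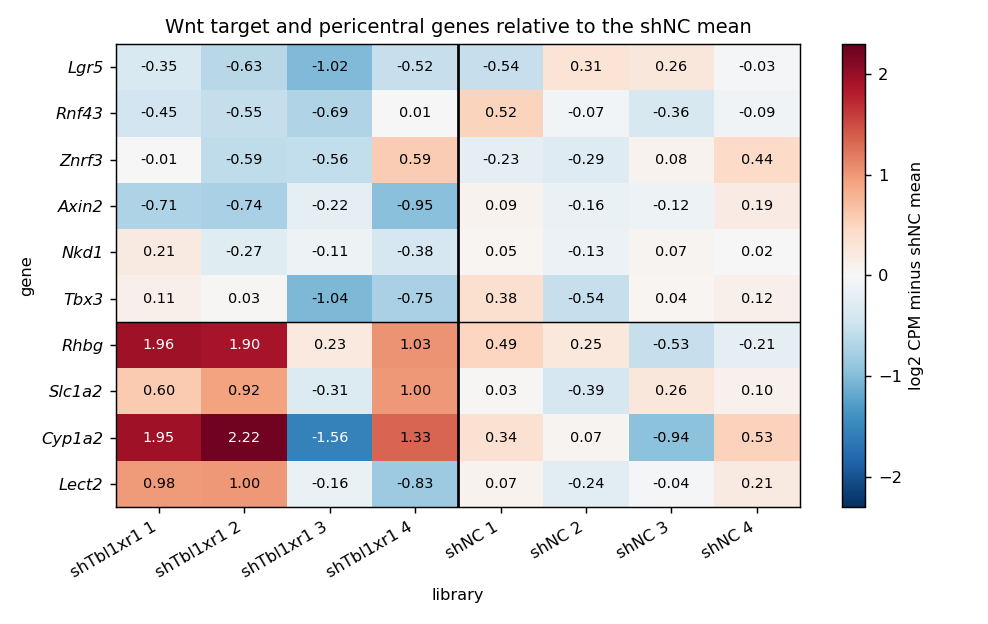
Log2 CPM minus the mean of the 4 shNC libraries for each gene (rows) in each library (columns, shTbl1xr1 left of the vertical line and shNC right of it), with the value in each cell. The 6 regulators are above the horizontal line. Axin2 and Lgr5 are negative in all 4 shTbl1xr1 libraries, and Cyp1a2 runs from -1.56 in shTbl1xr1 3 to 2.22 in shTbl1xr1 2.

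With all 8 libraries, edgeR called none of the genes in the other lists of Wnt targets and Wnt pathway genes. Of 12 other Wnt targets 8 were tested and 0 passed by edgeR (2 at an unadjusted p under 0.05, Ccnd1 lower and Myc higher), with 5 positive and 3 negative log2 fold changes and a median of 0.09. Ccnd1, which encodes cyclin D1 and is induced by many growth signals during regeneration, had the smallest p, with 79.9 ± 25.6 CPM in shTbl1xr1 and 192 ± 34.2 CPM in shNC (SD, n = 4 each). For Ccnd1, as for 3.37% of all genes, all 4 shTbl1xr1 libraries were below every shNC library. Its log2 fold change of -1.26 (SE 0.26) missed the threshold with edgeR (adjusted p = 0.18). DESeq2 (adjusted p = 0.000620, where 0.352% of all genes were called lower) and limma-voom (adjusted p = 0.0331) called it lower, and its adjusted p ran from 0.000501 to 0.619 over the alternatives. The transcription factor Myc had 8.01, 4.28, 10.2 and 39.4 CPM in shTbl1xr1 1 to 4, against 4.52, 5.68, 6.94 and 4.39 CPM in shNC 1 to 4, so that shTbl1xr1 4 was far above the rest and shTbl1xr1 2 below every shNC library. Further targets, chosen by name after their values were seen, were not called: Notum, a secreted enzyme that inactivates Wnt proteins, had -0.05 (SE 0.24), the transcription factor Tcf7 had 0.11 (SE 0.24) and the transcription factor Sp5 had 0.71 (SE 0.66). Dkk1 had 0 counts in every library, and Lef1, Apcdd1 and Nkd2 were under the filter.

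Of 16 ligands and secreted regulators 11 were tested, 0 passed by edgeR, DESeq2 or limma-voom, and 0 had an unadjusted p under 0.05, with 9 negative log2 fold changes and a median of -0.20. Porcn, the acyltransferase that Wnt proteins need for secretion, had the smallest p, at 0.964 ± 0.116 CPM in shTbl1xr1 and 1.32 ± 0.115 CPM in shNC (SD, n = 4 each; log2 fold change -0.48, SE 0.27, adjusted p = 0.473). Its groups did not overlap, as for 3.37% of all genes in that direction, but it rests on 9 and 7 counts in shTbl1xr1 1 and 2. The endothelial Wnt proteins of the central vein had -0.48 (Wnt2, SE 0.37) and 0.01 (Wnt9b, SE 0.39), and Rspo3, the R-spondin that sustains pericentral gene expression, had -0.20 (SE 0.27). Of 14 receptors 10 were tested and 0 passed by edgeR, DESeq2 or limma-voom (2 at an unadjusted p under 0.05), with a median of 0.05. Among them the Frizzled receptor Fzd8 had 0.96 (SE 0.39, adjusted p = 0.412) and Lgr4, the widely expressed relative of Lgr5, 0.40 (SE 0.28). Fzd8 had 0.49 without shTbl1xr1 4, and 0.78 in shTbl1xr1 1 and 2 against shNC, where it was called.

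Of 24 components of the beta-catenin cascade 23 were matched, 22 were tested and 0 passed by edgeR, DESeq2 or limma-voom (1 at an unadjusted p under 0.05), with 10 positive and 12 negative log2 fold changes within -0.41 to 0.48 and a median of -0.03. Csnk1a1, a kinase that primes beta-catenin for destruction, had -0.39 (SE 0.17, adjusted p = 0.426). Ctnnb1, the beta-catenin gene itself, had 192 ± 35.1 CPM in shTbl1xr1 and 226 ± 7.62 CPM in shNC (SD, n = 4 each), or -0.23 on the log2 scale (SE 0.18, adjusted p = 0.569). It was called lower in shTbl1xr1 1 and 2 against shNC (-0.48), the fit in which 21.1% of all genes were, and had -0.03 in shTbl1xr1 3 and 4 against shNC. Csnk1a1 was called lower in the same fit of shTbl1xr1 1 and 2 (-0.56) and had -0.24 in shTbl1xr1 3 and 4 against shNC.

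Among 19 other pericentral genes, all tested, 2 rose and 0 fell, where 0.0431% of all genes rose and 0.00719% fell. Both are drug-metabolising enzymes already known to stand out in these libraries, Cyp2a5, with 528 ± 111 CPM in shTbl1xr1 and 80.4 ± 12.6 CPM in shNC (log2 fold change 2.72, SE 0.22, adjusted p = 0.00476), and Gstm3, with 1151 ± 549 CPM in shTbl1xr1 and 97.5 ± 16.3 CPM in shNC (3.56, SE 0.35, adjusted p = 0.0142; SD, n = 4 each). Because each has near-identical relatives, the division of reads among them is uncertain. The list was chosen with earlier results of these data known, so its 2 calls beside the shares of all genes carry no test. Without shNC 1, 2 or 4 the adjusted p of Cyp2a5 was 0.0590, 0.0523 and 0.0513, and without any 1 shNC library that of Gstm3 was 0.0813 to 0.168. The median of the list was 0.45, and 16 of its 19 log2 fold changes were positive, as were 7037 of all 13908 genes tested. By library, the list's median log2 difference from the shNC mean was 0.645 and 0.697 in shTbl1xr1 1 and 2. In shTbl1xr1 3 and 4 it was -0.109 and 0.185. DESeq2 called 4 of the 19 higher and 1 lower. Beside Cyp2a5 and Gstm3 these were the drug oxidase Cyp2c29 (1.55, SE 0.39), its electron donor Por (0.61, SE 0.20) and, lower, the vasopressin receptor Avpr1a (-0.66, SE 0.17), given here as edgeR's log2 fold changes and named after their values were seen. Pericentral enzymes with wide spread were Cyp2e1, at 2752 ± 1544 CPM in shTbl1xr1 and 1821 ± 437 CPM in shNC, and the bile acid enzyme Cyp7a1, at 60.4 ± 75.6 CPM in shTbl1xr1 and 32.7 ± 19.6 CPM in shNC (SD, n = 4 each). Of 15 periportal genes, all tested, 0 passed by edgeR (2 at an unadjusted p under 0.05; DESeq2 called Ass1 higher and limma-voom called 0), 9 were positive and the median was 0.19. Ass1, an enzyme of the urea cycle, had the smallest p among them, with 3682 ± 467 CPM in shTbl1xr1 and 2522 ± 268 CPM in shNC (SD, n = 4 each; log2 fold change 0.55, SE 0.22, adjusted p = 0.412). The difference between the pericentral and the periportal list was not tested.

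**Figure D4:**
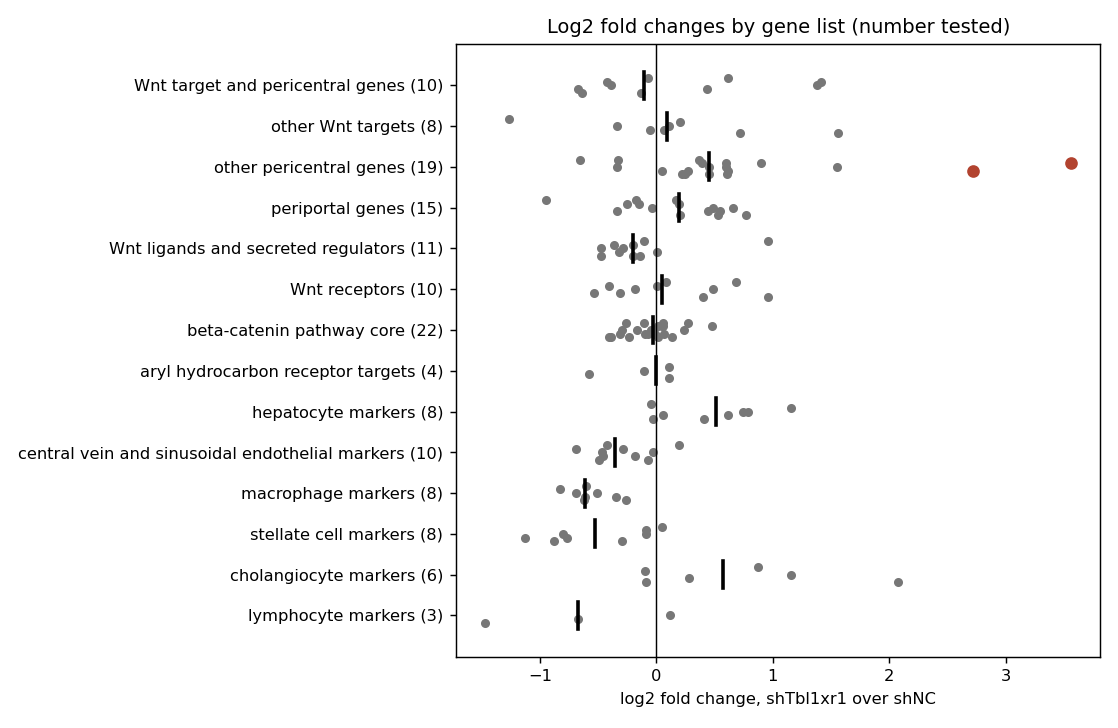
Log2 fold change of shTbl1xr1 over shNC for every tested gene of each list, with the number tested in brackets, the list's median as a black bar, and the genes past the threshold (Cyp2a5 and Gstm3) in red. The lists of Wnt ligands, receptors, cascade components and other Wnt targets have medians between -0.20 and 0.09, and macrophage markers one of -0.61.

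Markers of other cells moved with the libraries. In the shallow pair, median log2 differences from shNC were -0.83 and -0.96 for 10 endothelial markers, -1.50 and -1.24 for 8 macrophage markers and -1.37 and -1.58 for 8 stellate cell markers, all of which were tested. Hepatocyte markers, 8 of 8 tested, had 0.90 and 0.97 in the same libraries. In shTbl1xr1 3 and 4 the medians were 0.15 and 0.08 for endothelial, -0.17 and 0.20 for macrophage, 0.19 and -0.22 for stellate and -0.41 and 0.15 for hepatocyte markers. The summed level of the hepatocyte markers ran from 53740 to 99330 CPM in shTbl1xr1, against 57050 to 77370 CPM in shNC. It was highest in shTbl1xr1 1 and 2, the libraries with the most Cyp1a2, Rhbg and Lect2. Slc1a2, the remaining metabolic member, was instead highest in shTbl1xr1 4 (153 CPM), where the hepatocyte markers summed to 76330 CPM. The summed levels of the other lists were 128 to 295 CPM in shTbl1xr1 and 234 to 288 CPM in shNC for endothelial, 190 to 549 CPM in shTbl1xr1 and 434 to 713 CPM in shNC for macrophage, and 105 to 494 CPM in shTbl1xr1 and 236 to 434 CPM in shNC for stellate cell markers. None of these markers was at 0 in every library, and the part that cell composition has in the members' values was not tested.

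With all 8 libraries no marker passed by edgeR, where 4 had an unadjusted p under 0.05, or by limma-voom, and DESeq2 called Cd4 lower. The markers with the smallest p were Apoc3 for hepatocytes (1.15, SE 0.40, adjusted p = 0.382), Tek for endothelium (-0.46, SE 0.23, 0.444), Cd5l for macrophages (-0.69, SE 0.35, 0.444) and Dcn for stellate cells (-0.80, SE 0.28, 0.382), all log2 fold changes with edgeR's adjusted p. In shTbl1xr1 3 and 4 against shNC these were 0.20 for Apoc3, -0.19 for Tek, -0.19 for Cd5l and -0.38 for Dcn, none of them called. In shTbl1xr1 1 and 2 against shNC they were 1.72, -0.83, -1.50 and -1.42 in the same gene order, all called, as was Cd4 (-1.86). For bile duct cells, 6 of 7 markers were tested, the summed level was 37.2 to 237 CPM in shTbl1xr1 and 31.8 to 118 CPM in shNC, and Prom1 had 2.07 (SE 0.72, adjusted p = 0.382), which was 0.74 without shTbl1xr1 3. For lymphocytes, 3 of 7 were tested, the summed level was 2.00 to 3.55 CPM in shTbl1xr1 and 3.25 to 4.8 CPM in shNC, and Cd4 had -1.47 (SE 0.39, adjusted p = 0.290). The bile duct list was highest in shTbl1xr1 3 (237 CPM), followed by shNC 3 (118 CPM), and its relation to the members' levels was not tested.

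The genes whose profile over the 8 libraries was closest to that of Axin2 were Tmem170, Ppp1r8 and Foxf1, among 12393 others with a mean of at least 1 CPM. Likeness was the root mean square difference between log2 CPM profiles, each centred on its own mean, and was 0.09 for Tmem170, 0.15 for Ppp1r8 and 0.16 for Foxf1. Tmem170 had 6.69 CPM in shTbl1xr1 and 11.1 CPM in shNC on average, a log2 fold change of -0.73 (SE 0.17). None of the 10 members was among the 3 closest genes of another. With only 3 of 12393 genes kept per member, this does not show whether the members vary together.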

How the data were processed

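RNA of 8 liver samples was deposited as 1 table per library. The submitters' processing notes name RSEM, STAR, DESeq2 1.30.1 and, as genome build, mm10. Their options, the strand setting and the release of the annotation: not given in the sources used here. Each table holds the authors' expected counts, estimated fragments per gene that need not be whole, with TPM and FPKM, per the file headers. The authors' deposited TPM were used for levels between genes and, for some members, to set the groups side by side, and in no test. These TPM carry no TMM scaling, whose factors were 0.734 and 0.675 in shTbl1xr1 1 and 2 and 1.08 to 1.17 in the other libraries. Group differences on TPM therefore include that scale. The deposited FPKM were not used. Symbols and positions came from GENCODE M21 on GRCm38, which mm10 denotes, for 55141 of 55401 identifiers with the version removed.

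Expected counts were rounded. Genes were kept by filterByExpr (13908), scaled by TMM and fitted with edgeR 4.0.16 (R 4.3.3) by quasi-likelihood F tests with robust dispersions and no covariate. Intervals use the fit's own residual degrees of freedom. Members were also tested by exact two-sided permutation of log2(CPM + 1), and log2 levels of single libraries carry a prior count of 2. Alternatives used DESeq2 1.42.0, limma 3.58.1 and sva 3.50.0. The members, lists and alternatives were chosen with earlier results of these data known. Beside the members, Tbl1xr1, Glul and Ctnnb1, the rule named per list up to 2 genes per direction past the threshold, otherwise the gene with the smallest p, and the 3 profiles closest to Axin2. Other list genes were named after their values were seen. Library totals were 10728583 to 36720879 counts, and 3 counts equal 0.0744 to 0.414 CPM. The listed gene Tle5 was not matched by symbol.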

Additional observations from a re-analysis of the deposited data

How the results depend on the processing

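In 190 combinations of the 10 members with 19 alternatives, 11 turned direction and 6 passed the threshold, 5 of these in shTbl1xr1 1 and 2 against shNC. Axin2, Lgr5, Rnf43 and Nkd1 stayed negative and Rhbg, Slc1a2 and Cyp1a2 positive in all 19. Tbx3 turned to 0.032 in shTbl1xr1 1 and 2 against shNC. Znrf3 turned to 0.086 with 1 surrogate variable, 0.10 in shTbl1xr1 3 and 4 against shNC and 0.13 with the length trend removed, an alternative chosen after seeing the data, and ranged from -0.40 to 0.093 with 1 library left out. Lect2 turned to -0.025 when scaled by size alone, -0.32 with 1 surrogate variable, -0.47 in shTbl1xr1 3 and 4 against shNC and -0.058 with the length trend removed. Glul turned to -0.20 by size alone, -0.21 with 1 surrogate variable and -0.34 in shTbl1xr1 3 and 4 against shNC, and ranged from -0.074 (without shTbl1xr1 2) to 0.44 with 1 library left out. The causes were not tested.

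Over all genes, 6 higher and 1 lower became 3 higher by size alone, 12 higher without a filter, 248 and 47 with DESeq2, 31 and 2 with limma-voom, 38 and 4 with 1 surrogate variable, 30 and 3 with the length trend removed, 0 lower in shTbl1xr1 3 and 4 against shNC (677 at an unadjusted p under 0.05) and 3073 and 3021 in shTbl1xr1 1 and 2 against shNC. With 1 library left out they ranged from 0 to 28 higher and 0 to 6 lower. The extremes were 0 and 0 without shNC 1, 2 or 4, where an unadjusted p under 0.05 was reached by 844, 631 and 644 genes on the higher side and by 372, 297 and 292 on the lower, and 28 and 6 without shTbl1xr1 4. Members called were 1 higher with DESeq2, and 4 higher and 1 lower in shTbl1xr1 1 and 2 against shNC. In the 7 pathway and zonation lists, 2 higher and 0 lower became 1 higher by size alone, 5 and 2 with DESeq2, 1 lower with limma-voom, 17 and 20 in shTbl1xr1 1 and 2 against shNC, and 0 to 2 higher with 1 library left out (0 without shNC 1, 2 or 4). Cyp2a5 and Gstm3 did not pass without shNC 1, 2 or 4, nor Gstm3 without shNC 3 or by size alone. Tbl1xr1 itself passed with DESeq2 (-2.13), with 1 surrogate variable (-1.67) and in shTbl1xr1 1 and 2 against shNC (-3.88). Same-numbered libraries of the groups are not said to share anything and correlated at -0.07 to 0.38, and not every library correlated best with its own number, so the numbers were not taken as pairs. With the replicate block 4 genes were higher and 1 lower, and 0 members passed (2 at an unadjusted p under 0.05). Counts of 29 to 69 in the shallow libraries limit Axin2, Lgr5, Nkd1, Znrf3 and Rnf43.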
